A study of Homo sapiens with 6 samples.

Results

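The genes described here are the nuclear genes for the subunits of oxidative phosphorylation, taken from a table of 60606 genes by their symbols. Symbols that begin with NDUFA, NDUFB, NDUFC, NDUFS, NDUFV, UQCR, COX4 to COX8 or ATP5 were taken, together with CYC1 and the succinate dehydrogenase genes SDHA, SDHB, SDHC and SDHD. Of 270 rows that match, 14 NDUFAF rows (assembly factors) and 161 pseudogene rows were left out, which gave 95 genes. Of these, 89 are subunit genes, 37 for complex I, 4 for complex II, 10 for complex III, 19 for complex IV and 19 for complex V. The other 6 carry the same prefixes without being subunits: the read-through genes ATP5MF-PTCD1 and NDUFC2-KCTD14 and the noncoding RNAs NDUFA6-DT, NDUFB2-AS1, NDUFV2-AS1 and UQCRFS1-DT. NDUFA4 and its relative NDUFA4L2 are counted with complex IV, where the NDUFA4 protein is found, and the ATP synthase inhibitor ATP5IF1 is counted with complex V.

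RNA was sequenced from 6 subcutaneous tumors grown from wild-type MDA-MB-231 cells in NSG mice. MDA-MB-231 is an established human line of triple-negative breast cancer, and NSG mice lack mature T, B and natural killer cells, so the tumors come from 1 cell line in hosts without lymphocytes. Control tumors (n = 3) were not irradiated, and irradiated tumors (n = 3) received 1 local dose of 10 Gy of X-rays at about 800 mm3 and were collected after 3 days. The labels give neither volume nor collection time for the controls and do not say that each tumor came from its own animal, so the spread behind each p-value is that between these 6 samples and may be technical. Levels are TPM, shares of a sample's transcripts that are scaled for transcript length and can therefore be compared between genes. In bulk tumors, fewer cells of a type and less RNA per cell cannot be told apart.

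Oxidative phosphorylation passes electrons from NADH through complex I (NADH dehydrogenase), and from succinate through complex II, to ubiquinone, then through complex III (cytochrome bc1) and cytochrome c to complex IV (cytochrome c oxidase), which reduces oxygen. Complexes I, III and IV pump protons, and complex V (ATP synthase) uses the gradient to make ATP. All of complex II and most subunits of the other complexes are encoded in the nucleus, while a few core subunits of complexes I, III, IV and V come from the mitochondrial genome.

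A gene is called measured where its mean reached 1 TPM. All 81 measured subunit genes lay above the median of all 14140 measured genes, which was 11.7 TPM. Their means ranged from 13.9 TPM for NDUFV3, an accessory subunit of complex I, to 1266 TPM for COX6A1, a subunit of complex IV, a range of 90.8-fold. The median spread between tumors of a group was 0.15 on the log2 scale, against 0.26 over all measured genes. These sets differ in level, with medians of 179 and 11.7 TPM, and genes of equal level were not compared. Complex IV genes had the highest median level, 278 TPM, and complex II genes the lowest, 85.5 TPM.

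After irradiation 3 subunit genes fell and 1 rose, each of them in a different place in the chain. NDUFA10, an accessory subunit of complex I, stood at 108, 95.9 and 107 TPM in control tumors 1 to 3 and at 52.6, 58.0 and 62.7 TPM in irradiated tumors 1 to 3. COX7A2L, a relative of the complex IV subunit COX7A2 that helps to hold complexes III and IV together in supercomplexes, was at 115, 152 and 126 TPM in controls and at 67.4, 70.6 and 83.2 TPM in irradiated tumors. ATP5F1D, the delta subunit in the central stalk of ATP synthase, was at 187, 160 and 166 TPM in controls and at 103, 97.9 and 121 TPM in irradiated tumors. In these 3 genes every irradiated tumor lay below every control. UQCR11, the smallest subunit of complex III, went the other way, from 62.1, 68.8 and 53.7 TPM in controls to 114, 119 and 95.4 TPM in irradiated tumors, with every irradiated tumor above every control.

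On the log2(TPM + 1) scale, where a change of -1 is a halving, NDUFA10 fell by 0.84 (standard error 0.13, adjusted p = 0.0190). COX7A2L fell by 0.82 (standard error 0.15, adjusted p = 0.0332), ATP5F1D fell by 0.67 (standard error 0.14, adjusted p = 0.0413), and UQCR11 rose by 0.82 (standard error 0.15, adjusted p = 0.0307). These p-values are from limma with Benjamini-Hochberg adjustment over all 14140 genes. Of all measured genes 1.61% fell and 1.37% rose, and of the 85 measured members 3 fell (3.53%) and 1 rose. All 4 calls were kept without control tumor 2. NDUFA10 also kept its call without irradiated tumor 3 (adjusted p up to 0.0856 without any one of the other 4 tumors), and the other 3 lost theirs when any of the remaining 5 tumors was left out, with adjusted p up to 0.129 for COX7A2L, 0.151 for ATP5F1D and 0.123 for UQCR11. The same 3 also lost their calls with no filter on low values and in limma without trend, with adjusted p up to 0.0906, and COX7A2L further did so with medians of ratios, quantile normalization or length and GC correction.

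**Figure D1:**
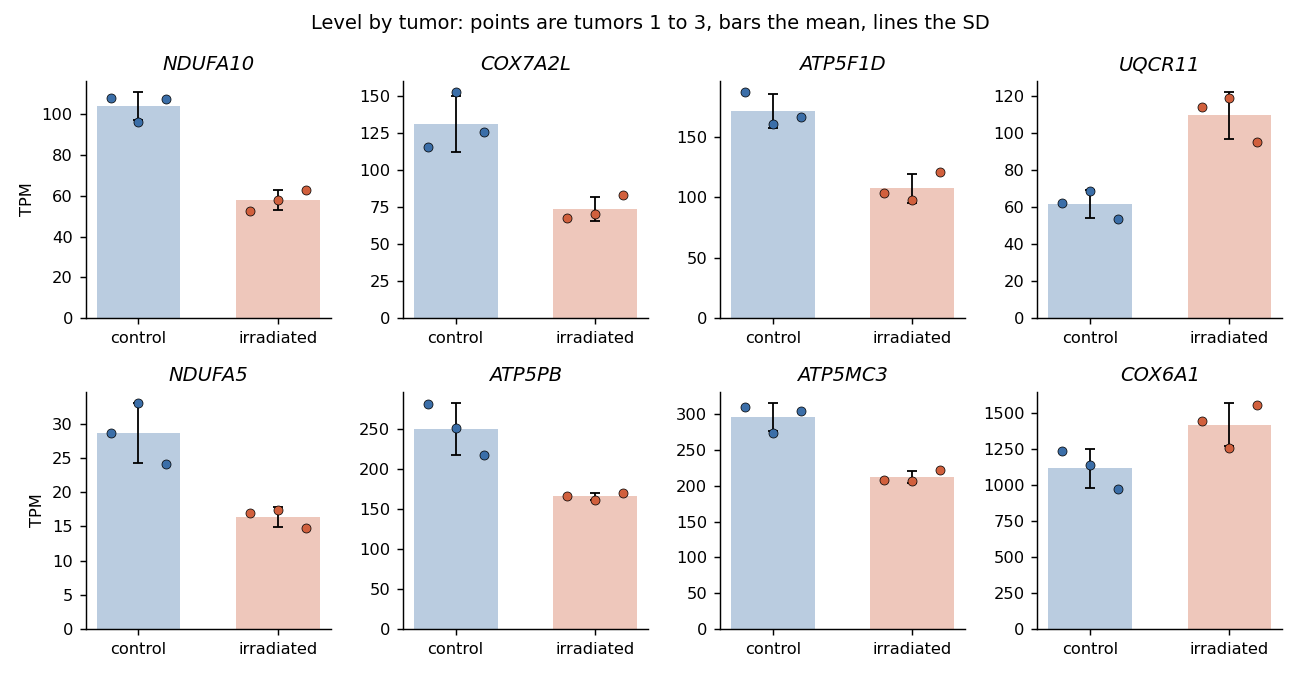
Level in TPM (vertical axes, from 0) of the 4 called genes in the upper row and of 4 further subunit genes in the lower row. Points are the 3 tumors of each group in the order 1 to 3, bars the mean and lines the SD. In each of the 8 genes the groups do not overlap, and the 3 irradiated tumors lie below the controls in 6 genes and above them in UQCR11 and COX6A1. The genes were chosen with their values known, so their separation does not describe the set. Of all measured genes 15.0% lay lower and 11.6% higher without overlap.

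The sequences before the starts of the called genes are shown because the promoters of subunit genes are known to share binding sites for NRF1, for ETS factors such as GABP, and for YY1. RefSeq windows (GRCh38.p14) of 250 bases before and 50 after a start were given for 70 of the 89 subunit genes, 83 windows in all, and ATP5F1D is among the 19 genes without one. Capitals mark letters that match CGCATGCG (NRF1), CCGGAAG (ETS) or AAGATGGC (YY1) on either strand. The 250 bases before each start follow, 5′ to 3′ on the strand of the gene, for NDUFA10 (chr2:240025343-240025592, minus strand), UQCR11 (chr19:1605463-1605712, minus strand) and the 2 starts of COX7A2L (chr2:42361218-42361467 and chr2:42368958-42369207, minus strand). ATP5PF, a peripheral stalk subunit of ATP synthase (chr21:25735055-25735304, minus strand), is added because it alone held all 3 motifs in these bases; its level was 166 ± 24.6 TPM (SD, n = 3) in controls and 191 ± 12.6 TPM (SD, n = 3) after irradiation.
NDUFA10: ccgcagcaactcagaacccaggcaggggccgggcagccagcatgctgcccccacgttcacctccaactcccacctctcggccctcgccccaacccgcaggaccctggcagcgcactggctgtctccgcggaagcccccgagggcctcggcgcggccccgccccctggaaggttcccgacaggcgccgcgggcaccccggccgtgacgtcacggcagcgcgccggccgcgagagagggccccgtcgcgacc
UQCR11: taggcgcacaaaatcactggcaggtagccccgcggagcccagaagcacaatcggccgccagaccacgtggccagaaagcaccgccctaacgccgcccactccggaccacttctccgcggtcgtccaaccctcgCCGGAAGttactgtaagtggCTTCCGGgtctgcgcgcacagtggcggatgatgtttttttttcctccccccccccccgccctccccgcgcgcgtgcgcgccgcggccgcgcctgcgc
COX7A2L, start 1: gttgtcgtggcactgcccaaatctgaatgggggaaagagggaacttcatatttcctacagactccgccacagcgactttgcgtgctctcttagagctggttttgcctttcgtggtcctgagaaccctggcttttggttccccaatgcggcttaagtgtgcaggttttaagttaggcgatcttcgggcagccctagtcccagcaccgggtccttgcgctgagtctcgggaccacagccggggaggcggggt
COX7A2L, start 2: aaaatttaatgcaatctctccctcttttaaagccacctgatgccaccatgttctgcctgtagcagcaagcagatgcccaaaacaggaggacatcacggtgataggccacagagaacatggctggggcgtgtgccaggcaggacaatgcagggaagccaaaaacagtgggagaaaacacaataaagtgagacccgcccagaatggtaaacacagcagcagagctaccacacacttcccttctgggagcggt
ATP5PF: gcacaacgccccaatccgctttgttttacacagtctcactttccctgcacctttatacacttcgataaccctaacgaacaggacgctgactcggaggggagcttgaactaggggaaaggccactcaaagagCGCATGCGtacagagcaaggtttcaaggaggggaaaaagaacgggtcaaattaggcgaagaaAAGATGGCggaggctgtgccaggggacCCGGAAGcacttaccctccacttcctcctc
The UQCR11 window holds CCGGAAG once on each strand, and the windows of NDUFA10 and COX7A2L hold none of the 3 motifs in the bases shown. Over the full windows, CGCATGCG was found in 13.3% of the subunit genes' windows, against 2.02% of all 35116 RefSeq promoters and 3.31% of those of measured genes. CCGGAAG was found in 26.5%, against 10.3% and 17.1%, and AAGATGGC in 15.7%, against 2.89% and 4.80%. At least 1 of the 3 was found in 38 of the 83 windows (45.8%), against 14.1% and 23.0%. Windows were counted, not genes, and windows of 1 gene can overlap. A match can thus be counted more than once, as for ATP5PF, where AAGATGGC lies in 2 overlapping windows. Of the windows of measured genes, 16 of 39 held a motif in complex I, 2 of 3 in complex II, 4 of 7 in complex III, 5 of 13 in complex IV and 11 of 18 in complex V. A match describes letters in a window and is not a binding site.

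Between the complexes the direction was mixed. Of the 85 measured members, 51 (60.0%) had a fold change below 0, and their median was -0.11. Over all measured genes 55.7% were below 0, with a median of -0.06. The irradiated tumors lay below the controls without overlap in 18 members (21.2%), where 15.0% of all measured genes did so, and above them in 10 (11.8%), where 11.6% did. At an unadjusted p under 0.05 limma gave 13 of the 85 lower and 3 higher, where 11.5% of all measured genes were lower and 8.93% higher. By complex, the median log2 fold change was -0.05 for complex I, -0.09 for complex II, -0.19 for complex III, 0.03 for complex IV and -0.12 for complex V. With medians of ratios or quantile normalization the median of all measured genes moved to -0.003 and -0.005. The complex I median then turned to 0.004 and 0.007, that of complex IV to 0.09 and 0.07, and that of all 85 members to -0.05 and -0.06.

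**Figure D2:**
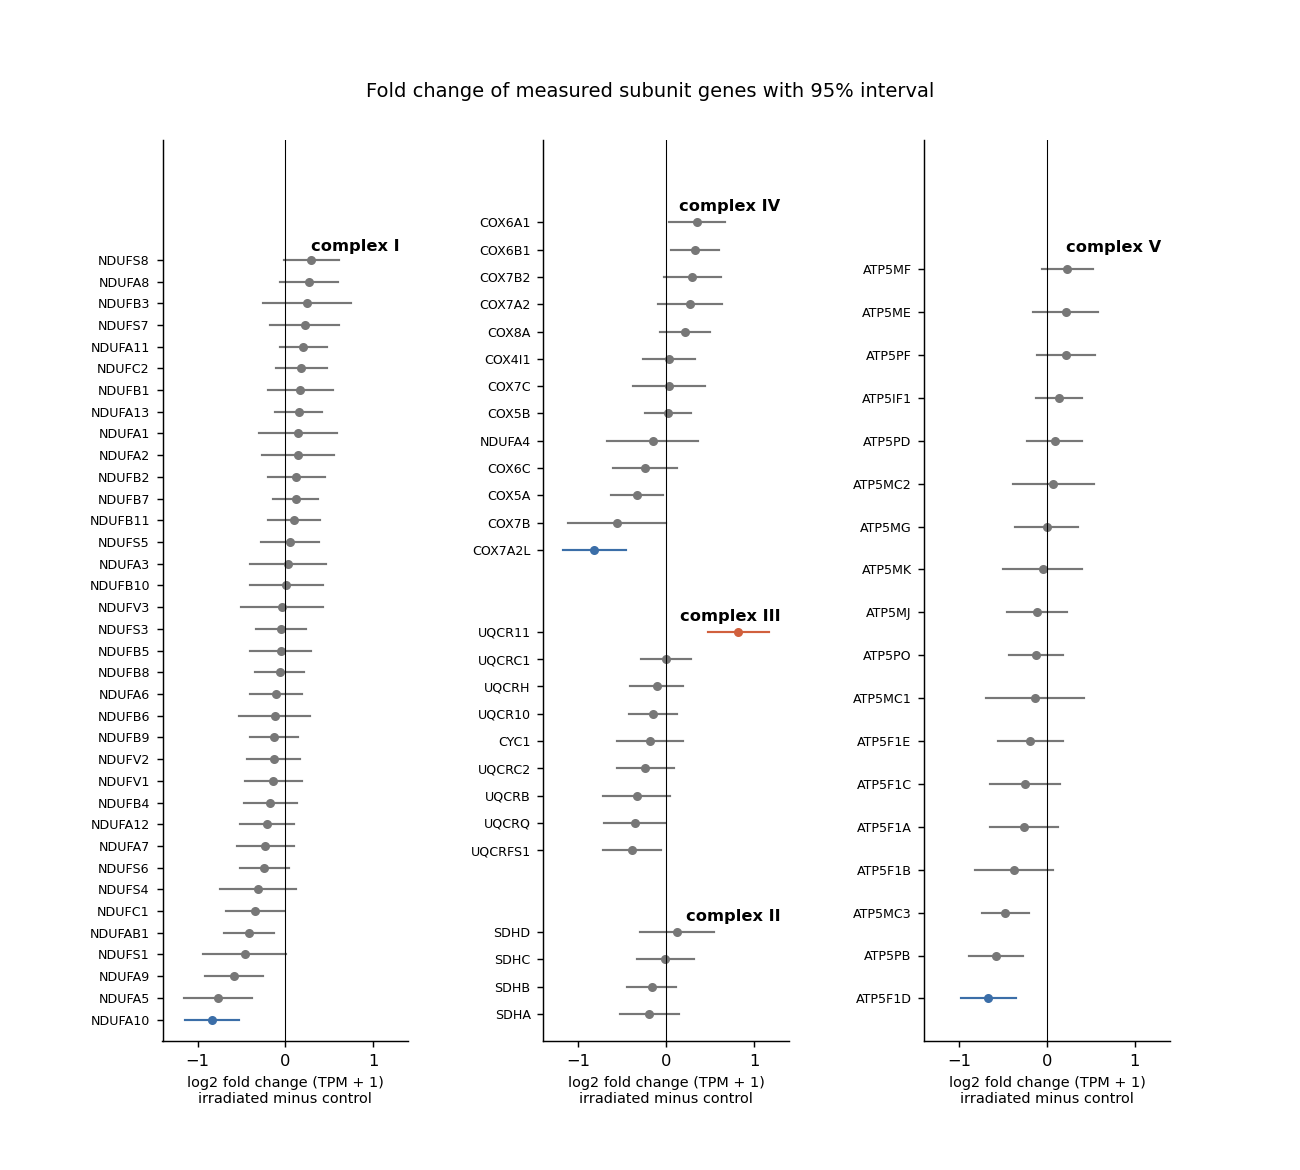
Log2 fold change (horizontal axis, irradiated minus control, TPM + 1) of 80 measured subunit genes in 5 complexes, each a point with its 95% interval from limma. Blue marks NDUFA10, COX7A2L and ATP5F1D, which fell, orange UQCR11, which rose, and grey the genes that were not called.

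In complex I 1 of 37 genes was called, and 21 had a fold change below 0. Its matrix arm, which takes electrons from NADH to ubiquinone, is built around 7 nuclear core subunits, and none of these was called. NDUFS1, the largest core subunit with several iron-sulfur clusters, was at 55.2, 35.3 and 54.8 TPM in controls and at 29.9, 33.9 and 39.2 TPM in irradiated tumors, a log2 fold change of -0.46 (limma adjusted p = 0.250). Values in parentheses after the levels are log2 fold changes with limma's adjusted p. Control tumor 2 lay among the irradiated ones. NDUFS3 was at 146, 153 and 176 TPM in controls and at 150, 155 and 152 TPM in irradiated tumors (-0.05, adjusted p = 0.851), and it shares exons with PTPMT1, which had 37.1% of its level. All 3 irradiated values of NDUFS3 lay within the range of the controls.

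NDUFV1, which binds NADH and the flavin, was at 120, 112 and 127 TPM in controls and at 100, 101 and 126 TPM in irradiated tumors (-0.14, adjusted p = 0.616). NDUFV2, its iron-sulfur partner, was at 136, 153 and 151 TPM and at 133, 120 and 148 TPM (-0.13, adjusted p = 0.604). In both genes irradiated tumor 3 lay among the controls. The iron-sulfur subunits nearest to ubiquinone had fold changes above 0. NDUFS7 was at 181, 125 and 128 TPM in controls and at 179, 170 and 150 TPM in irradiated tumors (0.22, adjusted p = 0.497), so that control tumor 1 was the highest of all. NDUFS8 was at 187, 192 and 176 TPM in controls and at 206, 214 and 264 TPM in irradiated tumors (0.29, adjusted p = 0.267), without overlap.

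The largest differences in complex I lay among its 30 accessory subunits, which surround the core and outnumber the 7 core subunits. As a set these 30 genes had a median log2 fold change of -0.05, near the -0.06 of all measured genes. In 8 of them the irradiated tumors lay below the controls without overlap (26.7%, against 15.0% of all measured genes), and in 3 above (10.0%, against 11.6%). NDUFA5, an accessory subunit of the matrix arm, was at 28.7, 33.0 and 24.2 TPM in controls and at 17.0, 17.4 and 14.7 TPM in irradiated tumors (-0.76, adjusted p = 0.0542). NDUFA9, which sits where the matrix and membrane arms meet, was at 87.8, 82.9 and 87.9 TPM and at 66.2, 56.3 and 50.0 TPM (-0.58, adjusted p = 0.0732). Both missed the threshold although every irradiated tumor lay below every control. NDUFAB1, the mitochondrial acyl carrier protein, had a level of 158 ± 11.9 TPM (SD, n = 3) in controls and 118 ± 6.46 TPM (SD, n = 3) after irradiation, a log2 fold change of -0.41 (adjusted p = 0.115). NDUFA13, the most abundant nuclear transcript of complex I, was at 535, 599 and 561 TPM in controls and at 632, 672 and 583 TPM in irradiated tumors (0.15, adjusted p = 0.493), with control tumor 2 above irradiated tumor 3. Among the 11 NDUFB genes of the membrane arm, fold changes lay between -0.17 and 0.25.

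Complex II, which is also the succinate dehydrogenase of the citric acid cycle, had no call among its 4 subunits. SDHA, the flavoprotein that oxidises succinate, was at 108, 80.9 and 99.1 TPM in controls and at 79.6, 82.5 and 88.4 TPM in irradiated tumors (-0.19, limma adjusted p = 0.494). SDHB, the iron-sulfur subunit, was at 124, 115 and 133 TPM and at 107, 109 and 115 TPM (-0.16, adjusted p = 0.478). SDHB was the only one of the 4 whose groups did not overlap, by a margin under 1 TPM, where 15.0% of all measured genes lay lower without overlap. The membrane anchor SDHC was at 56.9, 58.2 and 63.0 TPM in controls and at 51.6, 59.9 and 65.5 TPM in irradiated tumors (-0.01, adjusted p = 0.970). The other anchor, SDHD, was at 75.0, 94.6 and 63.8 TPM and at 74.4, 80.3 and 99.0 TPM (0.13, adjusted p = 0.733). In both anchors irradiated tumor 3 was the highest of the 6 tumors. The 95% intervals of the 4 fold changes reached from -0.53 for SDHA to 0.55 for SDHD.

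Complex III was the complex in which UQCR11 stood against its partners. Of 9 measured genes the other 8 had fold changes below 0 (88.9%, against 55.7% of all measured genes), by small amounts for most. UQCRFS1, the Rieske iron-sulfur protein that moves electrons from ubiquinol to cytochrome c1, was at 50.5, 42.4 and 48.7 TPM in controls and at 33.7, 34.5 and 39.4 TPM in irradiated tumors (-0.39, limma adjusted p = 0.178). UQCRQ, a small membrane subunit, was at 286, 341 and 241 TPM and at 212, 232 and 224 TPM (-0.36, adjusted p = 0.223). In both genes the irradiated tumors lay below all controls, without passing the test. UQCRC1, a core subunit with the highest level among the nuclear genes of the complex, was at 461, 446 and 422 TPM in controls and at 390, 453 and 487 TPM in irradiated tumors (-0.003, adjusted p = 0.992, 95% interval -0.29 to 0.29). UQCRH, the hinge protein that assists cytochrome c1, was at 474, 501 and 388 TPM and at 423, 427 and 408 TPM (-0.11, adjusted p = 0.678), while its retrocopy UQCRHL stayed at or below 0.13 TPM. As a ratio of transcript levels within each tumor, a measure chosen after the values were seen, UQCR11 over UQCRQ was 0.214 ± 0.0110 in controls and 0.492 ± 0.0594 in irradiated tumors (SD, n = 3). UQCR11 over UQCR10, another small subunit, was 0.388 ± 0.0371 and 0.768 ± 0.0918.

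Complex IV held the most abundant nuclear transcript of the chain. Of its 13 measured nuclear genes 8 had fold changes above 0 and 5 below (38.5%, against 55.7% of all measured genes). Several of its nuclear subunits exist as a widely expressed isoform and one known from muscle, lung or testis. COX6A1, the widely expressed isoform of subunit 6A, was at 1235, 1139 and 970 TPM in controls and at 1440, 1258 and 1555 TPM in irradiated tumors (0.35, limma adjusted p = 0.211). COX6B1, which faces the intermembrane space, was at 588, 655 and 547 TPM and at 712, 756 and 776 TPM (0.33, adjusted p = 0.172). COX8A, a small membrane subunit, was at 632, 649 and 603 TPM and at 738, 651 and 809 TPM (0.22, adjusted p = 0.361). In these 3 genes the irradiated tumors lay above all controls, in COX8A by little, and none passed the test. With COX7B2, 4 of the 13 genes lay higher without overlap (30.8%, against 11.6% of all measured genes). Lower without overlap were 3 of the 13 (23.1%, against 15.0%). COX4I1, a regulatory subunit, was at 799, 817 and 757 TPM in controls and at 821, 909 and 711 TPM in irradiated tumors (0.03, adjusted p = 0.910). COX5A, a matrix subunit, was at 369, 349 and 388 TPM and at 294, 260 and 325 TPM (-0.34, adjusted p = 0.187), with every irradiated tumor below every control.

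The members of the COX7 family did not move together. COX7A2, the widely expressed isoform of subunit 7A, was at 205, 266 and 206 TPM in controls and at 290, 294 and 233 TPM in irradiated tumors (0.27, limma adjusted p = 0.366), while its relative COX7A2L fell as given above. The ratio of COX7A2 to COX7A2L, also chosen after the values were seen, was 1.72 ± 0.0729 in controls and 3.76 ± 0.834 in irradiated tumors (SD, n = 3). COX7B, the widely expressed isoform of subunit 7B, was at 61.4, 81.9 and 61.3 TPM and at 57.1, 52.7 and 31.1 TPM (-0.56, adjusted p = 0.239), without overlap and lowest in irradiated tumor 3. Its relative COX7B2, known mainly from testis, was above COX7B in every tumor, at 103, 110 and 90.2 TPM in controls and at 140, 117 and 117 TPM in irradiated tumors (0.29, adjusted p = 0.281). The ratio of COX7B2 to COX7B was 1.50 ± 0.169 in controls and 2.81 ± 0.831 in irradiated tumors. NDUFA4 was at 75.9, 92.7 and 63.1 TPM and at 75.9, 84.6 and 49.7 TPM (-0.16, adjusted p = 0.734), with irradiated tumor 3 again the lowest.

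Apart from COX7B2, the complex IV isoforms known from other tissues were at or near 0. COX4I2 of lung, COX6A2 and COX7A1 of heart and skeletal muscle were listed at 0 in all 6 tumors. COX6B2 and COX8C, known from testis, reached at most 0.12 and 0.59 TPM, and NDUFA4L2, an isoform induced by hypoxia in many cells, reached 0.09 TPM in irradiated tumor 1 and was listed at 0 in the other 5.

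**Figure D3:**
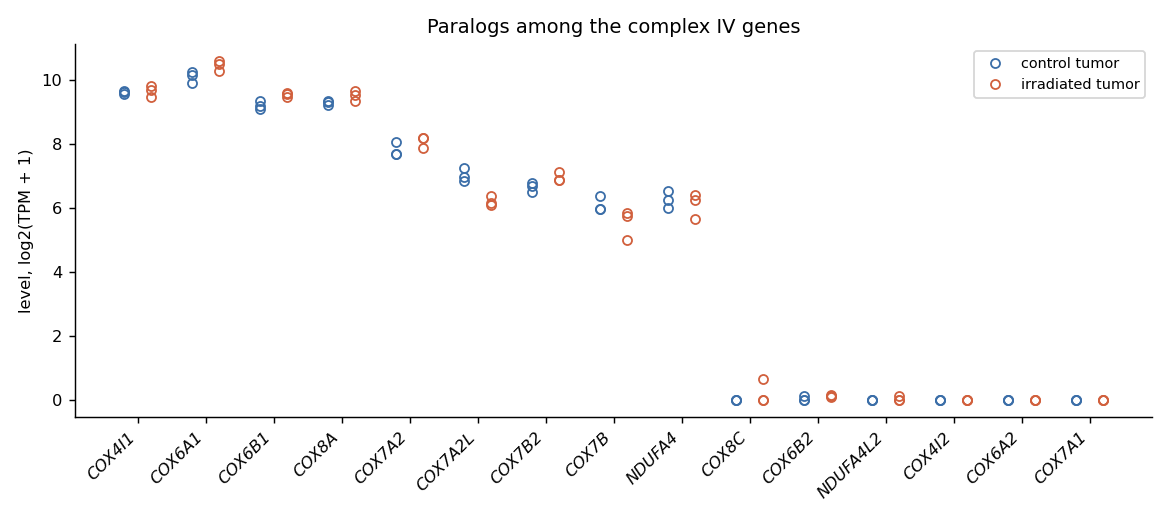
Level on the log2(TPM + 1) scale (vertical axis) of 15 complex IV genes that have relatives within the set, with 1 circle per tumor. COX7A2L is the only one of them that was called, and COX4I2, COX6A2 and COX7A1 are at 0 in all 6 tumors.

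In complex V 1 of 18 measured genes was called and fell (5.56%, against 1.61% of all measured genes). Fold changes below 0 were found in 12 genes of the complex (66.7%, against 55.7%). The catalytic head is built from ATP5F1A and ATP5F1B, the alpha and beta subunits. Their levels were 307 ± 50.1 and 747 ± 168 TPM (SD, n = 3) in controls, and 255 ± 36.3 and 569 ± 94.3 TPM (SD, n = 3) after irradiation. Neither differed beyond the spread of the tumors (log2 fold changes -0.26 and -0.38, limma adjusted p = 0.410 and 0.307). In the central stalk, which turns within the head, ATP5F1D fell as given above. The neighbouring gamma and epsilon subunits, ATP5F1C and ATP5F1E, had log2 fold changes of -0.25 and -0.19 (adjusted p = 0.460 and 0.534), with overlapping groups.

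The peripheral stalk, which holds the head still, showed its largest difference in ATP5PB, subunit b. It was at 281, 251 and 217 TPM in controls and at 166, 162 and 170 TPM in irradiated tumors (-0.58, limma adjusted p = 0.0593), without overlap. The c ring, the rotor in the membrane, is made of 1 protein encoded by 3 genes that differ in their import sequences. ATP5MC3 was at 309, 273 and 305 TPM in controls and at 208, 206 and 222 TPM in irradiated tumors (-0.48, adjusted p = 0.0728), without overlap. ATP5MC2, the most abundant of the 3, was at 534, 451 and 418 TPM and at 409, 428 and 669 TPM (0.07, adjusted p = 0.876). ATP5MC1 was at 212, 204 and 252 TPM and at 138, 211 and 282 TPM (-0.13, adjusted p = 0.792). In ATP5MC1 and ATP5MC2, irradiated tumor 3 was the highest of all 6 tumors and irradiated tumor 1 the lowest. ATP5MF, a small membrane subunit with the highest level among the nuclear genes of the complex, was at 1025, 1125 and 994 TPM in controls and at 1142, 1174 and 1385 TPM in irradiated tumors (0.23, adjusted p = 0.340). ATP5IF1, which blocks the enzyme when it would run backwards and consume ATP, was at 265, 286 and 298 TPM and at 323, 292 and 317 TPM (0.14, adjusted p = 0.541), with 1 control above 1 irradiated tumor.

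Summed over all 95 genes, the nuclear transcripts of the chain made up 2.02% ± 0.128 of all TPM in controls and 2.04% ± 0.0703 in irradiated tumors (SD, n = 3). The sums for complex III were 2116, 2170 and 1855 TPM in controls and 1770, 1893 and 1933 TPM after irradiation. Those for complex IV were 5193, 5550 and 4681 TPM and 5657, 5457 and 5659 TPM. In neither complex were the groups separated, since control tumor 3 was low in complex III and control tumor 2 high in complex IV. The 13 genes of the mitochondrial genome took 8.99%, 7.33% and 10.3% of all TPM in controls and 11.2%, 10.3% and 11.0% in irradiated tumors. All 13 had fold changes above 0, with a median of 0.30. In 5 of them the irradiated tumors lay above the controls without overlap, where 11.6% of all measured genes did so. MT-ND6 of complex I rose, from 926, 584 and 964 TPM to 1970, 1445 and 2456 TPM (1.25, limma adjusted p = 0.0385), where 1.37% of all measured genes rose. Whether the call of MT-ND6 holds in other settings or with single tumors left out is not given here. MT-CYB, the 1 mitochondrially encoded gene of complex III, was at 1734, 1963 and 2211 TPM in controls and at 2866, 2837 and 2637 TPM after irradiation, without overlap. The nuclear sum of complex III, which overlapped between the groups, divided by MT-CYB was 1.22, 1.11 and 0.839 in controls and 0.617, 0.667 and 0.733 after irradiation, without overlap. The same ratio overlapped between the groups in complexes I, IV and V, at 0.178 to 0.261, 0.140 to 0.236 and 0.173 to 0.292 in controls and at 0.162 to 0.195, 0.151 to 0.159 and 0.159 to 0.224 after irradiation.

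**Figure D4:**
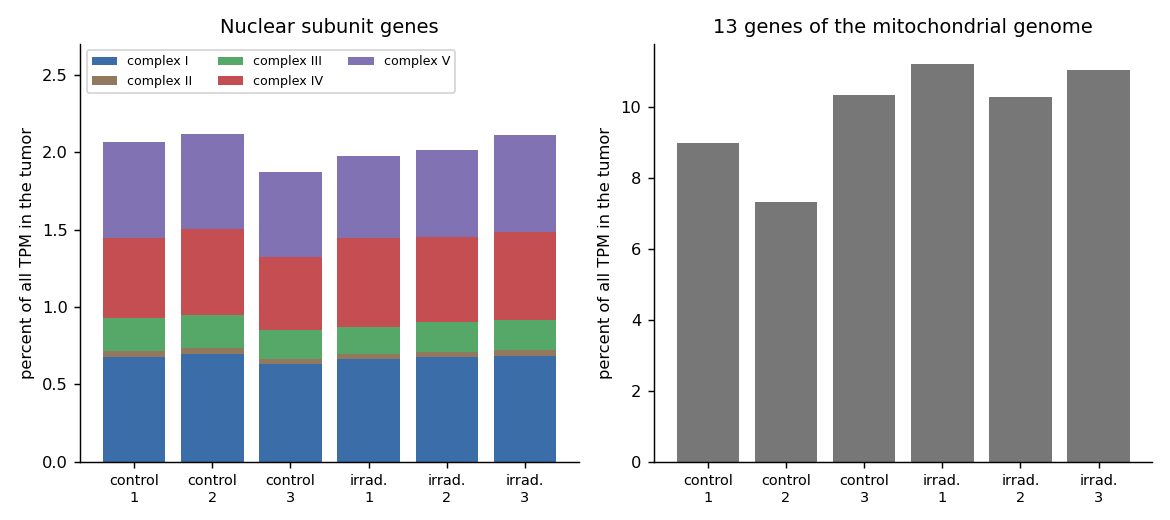
Share of all TPM (vertical axes, percent) taken by the nuclear subunit genes, stacked by complex on the left, and by the 13 genes of the mitochondrial genome on the right, with 1 bar per tumor. The nuclear total is lowest in control tumor 3, and the mitochondrial share is lowest in control tumor 2, at 7.33%.

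Control tumor 2 stood apart from the other 5 tumors, with ribosomal protein genes at 27.0% of all TPM against 19.8% to 22.3%, and on a second principal component with 19.1% of the variance. It had the highest value of the 6 tumors in 25 of 85 measured members (29.4%), while over all measured genes it was highest in 8.87%. It was the lowest in 2 members (2.35%), against 30.6% of all measured genes. The reverse held for control tumor 3, which was lowest in 25 members (29.4%), against 14.3% of all measured genes. The part of these differences between libraries in the results was not tested beyond leaving out each tumor.

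**Figure D5:**
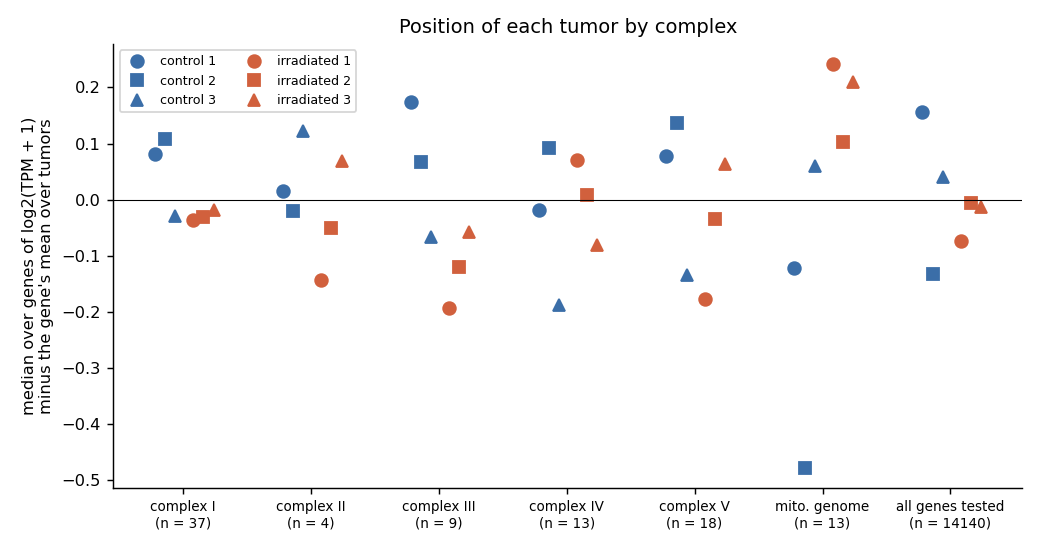
Position of each tumor (6 symbols per column) as the median over genes of log2(TPM + 1) minus the gene's mean over the 6 tumors, for the 5 complexes, the mitochondrial genome and all measured genes. Control tumor 2 lies at -0.13 over all measured genes and at 0.09 for complex IV, and complex III shows irradiated tumor 1 lowest, at -0.19.

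Other genes of the pathway were read from lists of assembly factors, electron carriers and regulators. Of 15 complex I assembly factors 2 fell, where 1.61% of all measured genes did so. NDUFAF8, which works with NDUFAF5 on the core subunit NDUFS7, was at 115, 107 and 108 TPM in controls and at 44.0, 34.3 and 40.8 TPM in irradiated tumors. It fell by 1.45 on the log2 scale (limma adjusted p = 0.00206). NDUFAF4, another assembly factor of the complex, was at 16.9, 21.3 and 20.0 TPM and at 11.4, 10.5 and 10.7 TPM, and fell by 0.77 (adjusted p = 0.0449). In both genes the groups did not overlap. Whether these 2 calls hold in other settings or with single tumors left out is not given here. None was called among 14 assembly factors of complexes II, III and V, 24 of complex IV, 15 electron carriers and enzymes of ubiquinone synthesis, 13 genes of the citric acid cycle or 14 regulators of mitochondrial gene expression. Their median log2 fold changes were -0.07, 0.07, -0.10, -0.14 and -0.14. Among the regulators, the genes for the factors whose motifs were searched were not called: NRF1 had a log2 fold change of -0.48 (adjusted p = 0.268), GABPA -0.21 (adjusted p = 0.604) and YY1 -0.22 (adjusted p = 0.445).

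Marker genes were read beside these results. The 8 markers expected to be high in MDA-MB-231 were measured in all tumors, and none of them was called. VIM, CD44 and AXL lay lower after irradiation without overlap (log2 fold changes -0.46, -0.44 and -0.53), where 15.0% of all measured genes did so. The groups of the others overlapped, and 3 of the 8 had fold changes above 0. ESR1, PGR and CDH1 were at or below 0.32 TPM, but ERBB2 was at 25.4 to 40.7 TPM. Of 18 skeletal muscle markers 15 were measured and 3 fell (MYH1, MYH4 and CASQ1), where 1.61% of all measured genes fell. After irradiation 13 lay lower without overlap, against 15.0% of all measured genes, and the median log2 fold change was -2.50. The 18 muscle markers summed to 484, 595 and 849 TPM in controls and to 354, 467 and 209 TPM after irradiation. Without TNNT1, whose groups overlapped at 204 to 350 TPM, the sum was 207, 274 and 566 TPM in controls. It was 3.66, 145 and 4.17 TPM in irradiated tumors 1 to 3. Of 10 fibroblast markers 7 were measured and 3 fell, all collagens (COL1A1, COL1A2 and COL3A1), whose sum was 465 to 996 TPM in controls and 126 to 206 TPM after irradiation. The other 7 summed to 10.1 to 13.4 TPM and 7.82 to 16.5 TPM, with LUM, PDGFRA and THY1 at or below 0.39 TPM and PDGFRB at a log2 fold change of 0.95 (limma adjusted p = 0.211). FAP and POSTN lay lower after irradiation without overlap (-0.995 and -0.73, adjusted p = 0.13 and 0.20), and DCN was at -0.08 with overlapping groups. Of the 7 measured fibroblast markers 5 lay lower without overlap, against 15.0% of all measured genes. The median log2 fold change of these 7 was -0.995. Endothelial markers summed to at most 8.95 TPM, adipocyte markers to at most 1.00 TPM, with ADIPOQ, LEP and UCP1 listed at 0 throughout, and myeloid markers to 80.7 to 99.3 TPM and 96.1 to 191 TPM, nearly all of it CD68. The part of other cells in the subunit results was not tested. The oxidative phosphorylation isoforms of muscle, COX6A2 and COX7A1, were at 0 in all 6 tumors, as given above. The muscle marker MB was likewise at or below 0.66 TPM, although ACTA1 reached 165 TPM in control tumor 3. The hosts were mice and these rows are human genes, so a 0 does not show that muscle was absent.

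Of the 95 genes, 10 were not measured. They were the 6 complex IV isoforms named above, UQCRHL, ATP5MGL, NDUFB2-AS1 and UQCRFS1-DT. The remaining 4 genes that are no subunits had means between 1.06 TPM for NDUFV2-AS1 and 5.83 TPM for NDUFC2-KCTD14, and none of these was called. The 161 pseudogene rows together summed to 10.5 to 36.9 TPM. The highest mean among them was that of UQCRFS1P1, at 16.5, 11.5 and 15.1 TPM in controls and at 6.39, 5.37 and 7.43 TPM after irradiation. Whether reads shared between UQCRFS1P1 and UQCRFS1 affect their values was not tested. Exons shared with another gene on the same strand were found for 24 of the measured subunit genes, and the partners exceeded 10% of the member's level for NDUFA7 (31.3%) and NDUFS3. Summing each gene with its partners, an alternative chosen after seeing the data, left 3 genes that fell and 1 that rose.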

How the data were processed

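Values are TPM for 60606 genes in 6 tumors, as deposited by the authors. Per the submitters' processing notes, HISAT2, StringTie, RSEM and build hg38 were used, with versions and order not given in the sources used here; nor do the sources name an annotation release, a strand setting or a step against mouse reads. TPM keep no depth, so no counting interval or count test was possible, and a rise in abundant genes lowers all other values. Libraries were made from total RNA with a TruSeq kit, per the labels' protocols.

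The 2 groups were compared on log2(TPM + 1) by limma 3.58.1 (lmFit, eBayes with trend; R 4.3.3). The fit took all 14140 genes whose mean reached 1 TPM, had group as its single term and was two-sided, with Benjamini-Hochberg adjustment at 0.05. Fold changes on this scale understate those of low genes. The fit was tested on simulated data. Gene positions, exon overlap, length and GC content came from GENCODE 29, in which all 95 members and 58396 of all identifiers were found. The members and gene lists were chosen with earlier results of these data known. Values by tumor are given for called members, the 3 members of each complex with the smallest p, the most abundant member of each complex, complex I core subunits, complex II, paralog sets and ATP5IF1; from the other lists, the called genes. The values of 1 core subunit of complex I are not reported here. Named after their values were seen were NDUFAB1, UQCR10, ATP5F1A, ATP5F1B, ATP5F1C, ATP5F1E, ATP5PF, NRF1, GABPA and YY1. Alternatives were no filter on low values or a mean of 5 TPM as the minimum, a pseudocount of 0.1 or 5 TPM, medians of ratios, quantile normalization, mitochondrially encoded and ribosomal protein genes left out, limma without trend, with robust estimates or with sample weights, a replicate block, length and GC correction with loess, and each tumor left out in turn.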

Additional observations from a re-analysis of the deposited data

How the results depend on the processing

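The number of members that fell (3) was 1 without a filter on low values and 1 without trend, where NDUFA10 was the gene called, 5 with robust estimates, which added NDUFA5 and ATP5PB, and 7 with sample weights, which added ATP5MC3 and NDUFA9 to those. With single tumors left out it ranged from 0 to 4. The number that rose (1) was 0 without a filter and 0 without trend, and 0 to 1 with single tumors left out. With a replicate block 0 fell and 0 rose. Over genes, the deviations from the group means correlated at -0.0433, -0.0459 and -0.0590 between a control and an irradiated tumor with equal numbers. Such deviations sum to 0 within each group of 3, so these correlations cannot decide whether the numbers mark pairs or batches. NDUFA10 was called in 14 of 19 alternatives, ATP5F1D and UQCR11 in 11 each and COX7A2L in 8; COX7A2L missed the threshold with medians of ratios (adjusted p = 0.0764), quantile normalization (0.0513) and length and GC correction (0.0784). All 4 kept their direction in all 19. The causes were not tested.

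With length and GC correction the median was 0.032 for complex II and -0.011 for complex V. Over all 19 alternatives the median ranged from -0.12 to -0.022 for all members and from -0.30 to -0.12 for complex III, and that of complex IV from -0.0067 to 0.11, below 0 without control tumor 1 or 3. Directions turned for uncalled genes near 0. NDUFS3 was at 0.0068 with medians of ratios and 0.0069 with quantile normalization. SDHC was at 0.044 and 0.051 with these, at 0.028 without mitochondrially encoded and ribosomal protein genes and at 0.19 with length and GC correction. UQCRC1 was at 0.056 with medians of ratios, 0.038 without those genes and 0.0092 with sample weights, and NDUFA4 at 0.072 with sample weights. With single tumors left out, the ranges were -0.073 to 0.085 for UQCRC1, -0.15 to 0.20 for ATP5MC2, -0.11 to 0.027 for NDUFS3, -0.092 to 0.078 for SDHC, -0.0048 to 0.28 for SDHD, -0.38 to 0.14 for ATP5MC1, -0.049 to 0.13 for COX4I1 and -0.31 to 0.070 for NDUFA4. Leaving out control tumor 2 moved the median of all genes to -0.13. The number of tumors and the unknown depth limit the precision of each value.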
